A study of Mus musculus with 9 samples.

Results

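The 10 genes followed here are a set of salivary and lacrimal gland antigens, read in 3 groups of sorted mouse thymic cells. They are Mucl1, Mucl2, Prol1, Smr2, Smr3a, Prp2, Cst10, Bpifa2, Dcpp1 and Amy1. Apart from Mucl1, which RefSeq lists as a transcribed pseudogene, they encode secreted proteins of these glands. They were taken by symbol, and they are 10 of the 18194 genes that could be tested. For each gene every probe set annotated to that symbol alone was read, and the brightest over the 9 arrays was used. The arrays measured total RNA of ZsG plus cells, ZsG minus mTEC and ZsG minus cTEC, with 3 arrays in each group. ZsG is ZsGreen, a green fluorescent protein, here placed at the start codon of Tslp on a bacterial artificial chromosome. mTEC and cTEC are the usual abbreviations for medullary and cortical thymic epithelial cells. All groups are labelled with the C57BL/6 background, and the mice were 8 to 20 weeks old. The sources used here name neither the markers and gates of the sort nor the compartment from which ZsG plus cells were taken and do not say whether the ZsG minus cells came from reporter mice.

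Medullary epithelial cells transcribe many genes that belong to other tissues, so that developing T cells that react to those proteins can be removed or turned into regulatory cells. The transcription regulators Aire and Fezf2 drive much of this expression, and any single antigen is usually made by only a small share of the cells at a given time. Proteins of saliva and tears are among these antigens, and mice that lack Aire can develop inflammation of the lacrimal and salivary glands. Cortical epithelium, which selects T cells at an earlier stage, is not known for such expression.

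Marker genes were read first, to check the labelled compartments. The summed intensity of 6 measured medullary markers was 52936 to 90033 in ZsG plus and 61037 to 70490 among ZsG minus mTEC arrays, against 24432 to 33035 on the ZsG minus cTEC arrays. Aire and Fezf2 differed most, with means of 19854 and 19026 in ZsG minus mTEC, against 1973 and 1461 in ZsG minus cTEC. Tnfrsf11a and Cd80 differed less (1821 and 8957, against 1140 and 5037). Krt5 was alike (13137, against 13398), and Pvr went the other way (1313, against 5622). For 8 cortical markers it was 52564 to 91513 in ZsG plus and 59167 to 85264 in ZsG minus mTEC, against 265736 to 315446 in ZsG minus cTEC. The cell type field of the labels reads keratinocytes for all groups, and 6 keratinocyte markers summed to 29654 to 35346 in ZsG plus and 29162 to 37770 in ZsG minus mTEC, but to 2586 to 5084 in ZsG minus cTEC. The ZsG plus arrays stood apart technically: their median intensity was 230 to 316, against 366 to 424 among ZsG minus mTEC arrays and 376 to 404 among ZsG minus cTEC arrays, and a hybridisation control (CreX, 3' probe set) read 424395 to 795258, against 225916 to 249504 among ZsG minus mTEC arrays and 179847 to 338274 among ZsG minus cTEC arrays. The 3' over 5' ratio of Gapdh probe sets, a sign of RNA quality, was 6.71 to 10.6 in ZsG plus, against 4.66 to 5.97 among ZsG minus mTEC arrays and 4.55 to 5.60 among ZsG minus cTEC arrays. The part of these in the results for ZsG plus was not tested. As a guide to background, the highest reading of 6 probe sets for the bacterial controls PheX and DapX was taken on each array, a choice made after the data were seen. It was 144 to 341 in ZsG plus, 48.7 to 139 among ZsG minus mTEC arrays and 128 to 241 among ZsG minus cTEC arrays, so a dim gene was harder to tell from background on the ZsG plus arrays than on those of ZsG minus mTEC.

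The genes lie on 6 chromosomes, and several lie within a few gene positions of each other (GRCm38.p6, RefSeq). Mucl1 (chromosome 15, 103751923 to 103755498) and Mucl2 (chromosome 15, 103895855 to 103899312) lie near each other, and RefSeq lists Mucl1 as a transcribed pseudogene. Smr3a (87991555 to 88008534), Smr2 (88086556 to 88109053) and Prol1 (88317312 to 88328817) share a stretch of chromosome 5. Cst10 (149405249 to 149410278) and Bpifa2 (154008276 to 154016073) are both on chromosome 2 but not adjacent. Prp2 (132595911 to 132600702) is on chromosome 6, Amy1 (113555952 to 113577750) on chromosome 3 and Dcpp1 (23880669 to 23882853) on chromosome 17. The position of the probe sets within exons or untranslated regions was not analysed here.

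The 100 bases upstream of the annotated start are shown for the 3 genes that passed the test in any comparison, Mucl2, Prp2 and Cst10, as the stretch where a shared start signal would be sought. They come from RefSeq promoters of GRCm38.p6, are written 5′ to 3′ on the strand of the gene, and capitals mark TATAA within the last 50 bases.
Mucl2 (chr15:103899313-103899412, minus strand): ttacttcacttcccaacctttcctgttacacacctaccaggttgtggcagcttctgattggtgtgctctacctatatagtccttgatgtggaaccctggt
Prp2 (chr6:132595811-132595910, plus strand): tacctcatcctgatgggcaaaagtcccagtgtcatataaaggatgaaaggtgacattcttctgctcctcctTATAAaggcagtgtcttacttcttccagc
Cst10 (chr2:149405149-149405248, plus strand): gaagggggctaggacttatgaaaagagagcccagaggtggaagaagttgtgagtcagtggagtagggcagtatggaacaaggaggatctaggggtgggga
In Prp2 the motif begins 29 bases before the start, while Mucl2 and Cst10 do not hold these letters there. Promoter windows were found for 9 of the 10 genes, with 2 for Amy1, which makes 10 windows. TATAA, searched on the strand of the gene, stood in the 50 bases before the start in 5 of these 10 windows, those of Prp2, Smr2, Smr3a, Bpifa2 and Dcpp1, against 4.51% of the 18007 windows of genes tested. Each of the 10 windows, which run past the start, held at most 5 CG dinucleotides, with a median of 1, against 23.4% of windows with at most 5 and a median of 16. AGAACA, the half-site of androgen and glucocorticoid receptors, searched on both strands, was found in 3 of the 10 windows, against 14.6% of all. These were the window of Bpifa2 and the 2 windows of Amy1. These matches describe the letters only.

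**Figure D1:**
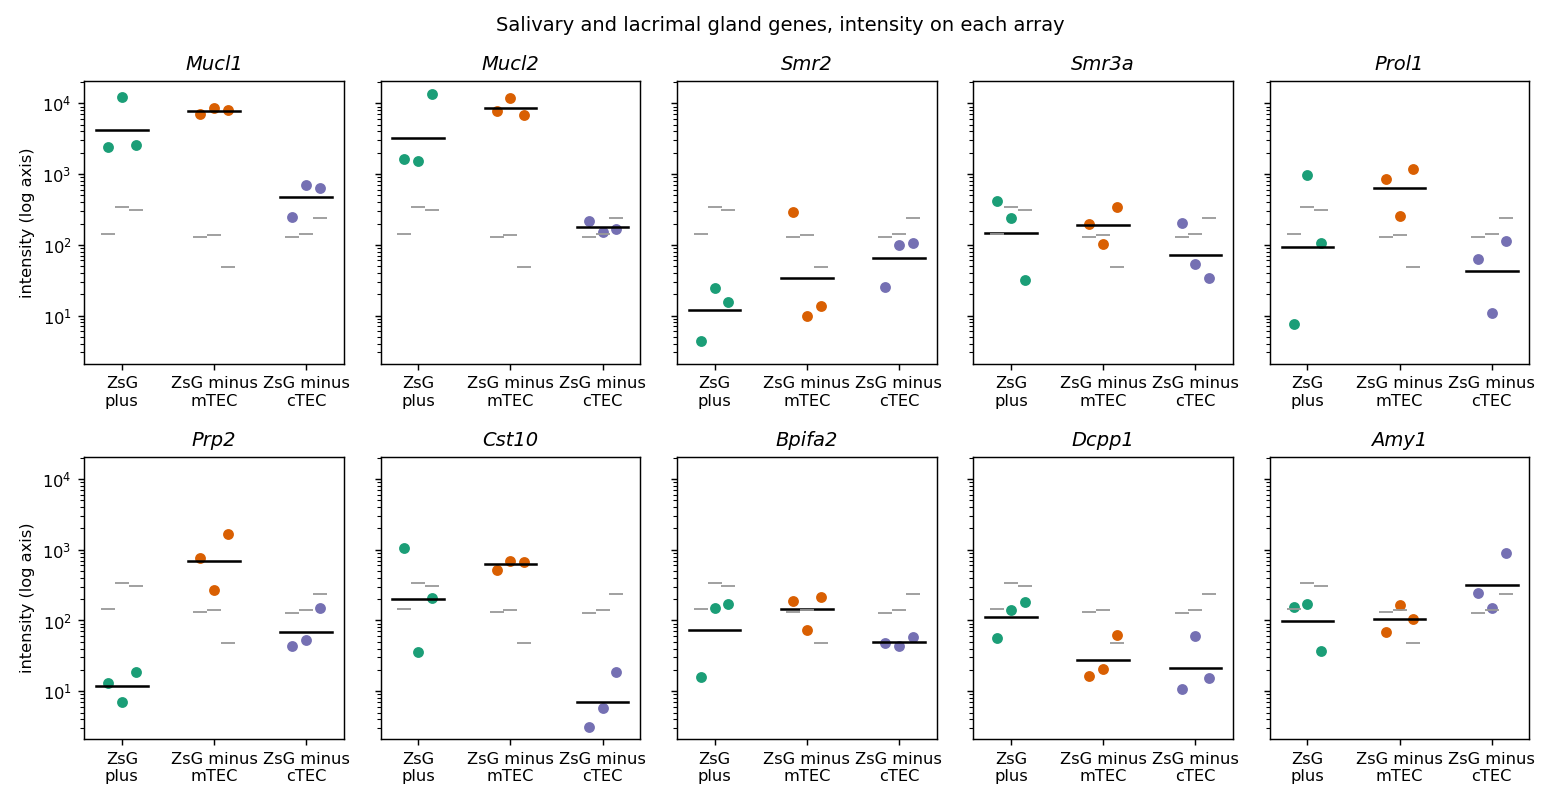
Intensity of the 10 genes on each array (points, log axis) in ZsG plus, ZsG minus mTEC and ZsG minus cTEC; black bars are geometric means of 3 arrays and grey ticks the highest PheX or DapX control reading of the same array. Mucl1 and Mucl2 stood above the controls on all arrays of ZsG plus and ZsG minus mTEC, while all 3 Prp2 readings in ZsG plus lay below them.

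The mucin-like genes were the members read above the controls on every ZsG plus and ZsG minus mTEC array. Mucl2, which encodes a mucin-like salivary protein also called Spt1, read 1639, 1528 and 13606 across the ZsG plus arrays and 7903, 11714 and 6897 on the ZsG minus mTEC arrays. On the ZsG minus cTEC arrays it read 215, 154 and 168, the last of these below the highest control of its array. No ZsG minus cTEC reading overlapped with either other group, whereas ZsG plus and ZsG minus mTEC overlapped through the third ZsG plus array. In ZsG minus mTEC Mucl2 was higher than in ZsG minus cTEC by 5.60 ± 0.84 on the log2 scale (limma estimate ± SE, n = 3 arrays each, adjusted p = 0.0386), at least 43.1-fold with the array below its control raised to it. In ZsG plus it was higher than in ZsG minus cTEC by 4.19 ± 0.84 (limma adjusted p = 0.0451), at least 16.2-fold in the same way. The difference between ZsG plus and ZsG minus mTEC was −1.41 ± 0.84 (limma adjusted p = 0.498). Each of the calls was lost when any single ZsG minus array was left out (adjusted p from 0.0801 to 0.155 for ZsG plus and from 0.098 to 0.148 for ZsG minus mTEC, each over ZsG minus cTEC), and kept when any ZsG plus array was left out. Both were also lost when all probe sets were tested (adjusted p = 0.0503 for ZsG plus and 0.0552 for ZsG minus mTEC). For ZsG plus the call was lost in a fit of only the 6 arrays (adjusted p = 0.147) and with array weights (adjusted p = 0.0878), and for ZsG minus mTEC with each array centred on the genes tested (adjusted p = 0.0556). With the replicate number as a block both were lost (limma adjusted p = 0.0934 for ZsG plus and 0.108 for ZsG minus mTEC). Calls over all genes also fell without a single ZsG minus array, from 317 to between 0 and 81 for ZsG plus over ZsG minus cTEC. Between the ZsG minus groups they fell from 114 to 0, whichever ZsG minus array was left out.

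Mucl1, the nearby mucin-like gene also called Spt2, had the same order of groups without passing the threshold. It read 2404, 12329 and 2558 across the ZsG plus arrays and 7111, 8667 and 8019 on the ZsG minus mTEC arrays, against 247, 704 and 637 across the ZsG minus cTEC arrays. The ZsG minus mTEC readings lay within 1.22-fold of each other, the ZsG plus readings within 5.13-fold, and neither group overlapped with ZsG minus cTEC. The difference was 4.04 ± 0.76 between ZsG minus mTEC and ZsG minus cTEC (limma adjusted p = 0.0582) and 3.14 ± 0.76 for ZsG plus over ZsG minus cTEC (limma adjusted p = 0.0764). Over the alternatives the first of these passed in 8 of 19 and the second in 3 of 19. Between ZsG plus and ZsG minus mTEC it was −0.90 ± 0.76 (limma adjusted p = 0.625). In ZsG plus the bright array differed between these genes, the second array for Mucl1 and the third for Mucl2.

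Prol1, a proline-rich lacrimal and salivary mucin gene whose synonym is Muc10, was above the controls on all ZsG minus mTEC arrays. Its brighter probe set read 7.54, 955 and 107 across the ZsG plus arrays and 850, 257 and 1170 on the ZsG minus mTEC arrays, against 62.1, 10.9 and 114 on the ZsG minus cTEC arrays. A single ZsG plus array, the second, reached the ZsG minus mTEC range. ZsG minus mTEC did not overlap with ZsG minus cTEC, but the difference of 3.90 ± 1.62 did not pass (limma adjusted p = 0.366). All ZsG minus cTEC readings of Prol1 were below their controls, and raised to them they leave at least 3.88-fold. The differences of ZsG plus were −2.79 ± 1.62 from ZsG minus mTEC and 1.11 ± 1.62 from ZsG minus cTEC (limma adjusted p = 0.485 and 0.749), and the last became −0.58 without the second ZsG plus array. The dimmer probe set of Prol1 read 1.62 to 273 and did not separate any pair of groups.

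Prp2 was the member that fell in ZsG plus relative to ZsG minus mTEC. It encodes a proline-rich protein of the family that binds dietary tannins in saliva. Prp2 read 13.0, 7.10 and 18.5 on the ZsG plus arrays, against 772, 269 and 1670 on the ZsG minus mTEC arrays. On the ZsG minus cTEC arrays it read 43.1, 52.1 and 149. All ZsG plus and all ZsG minus cTEC readings lay below the highest control of their array, and all ZsG minus mTEC readings above it. Prp2 fell by 5.88 on the log2 scale (SE 0.82, limma adjusted p = 0.0409) in ZsG plus relative to ZsG minus mTEC. With the ZsG plus readings raised to their controls, ZsG minus mTEC stood at least 2.85-fold higher by geometric mean. Raised in this way the groups overlapped, as the lowest ZsG minus mTEC reading, 269, lay below the ZsG plus controls of 341 and 307. With 50 added to every intensity the difference was −3.61. The call was lost when any single ZsG minus array was left out (adjusted p from 0.0629 to 0.143), in a fit of only the 6 arrays (adjusted p = 0.163) and with array weights (adjusted p = 0.182). Without a single ZsG minus array the calls over all genes in this comparison also fell, from 40 to between 0 and 7. They were 0 in the other 2 fits. The call of Prp2 was also lost with quantile normalization (adjusted p = 0.0641) and with each array centred on its median (adjusted p = 0.0772 over all probe sets, 0.0748 over the genes tested). With the replicate number as a block it was lost too (limma adjusted p = 0.106). Between ZsG minus mTEC and ZsG minus cTEC the difference was 3.34 ± 0.82 (limma adjusted p = 0.115), at least 4.30-fold over the controls. ZsG plus and ZsG minus cTEC did not overlap, with a difference of −2.54 ± 0.82 (limma adjusted p = 0.148), but every reading in both groups lay below the highest control of its array.

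Cst10, a member of the cystatin family of cysteine protease inhibitors, rose in ZsG minus mTEC relative to ZsG minus cTEC. It read 1066, 35.5 and 206 across the ZsG plus arrays and 512, 691 and 675 on the ZsG minus mTEC arrays. On the ZsG minus cTEC arrays it read 3.16, 5.76 and 18.8, all below the controls. The difference between ZsG minus mTEC and ZsG minus cTEC was 6.47 ± 1.16 (limma adjusted p = 0.0492). Its size rests on those dim readings: it was 3.51 with 50 added to every intensity (adjusted p = 0.0519), and the fold over the controls was at least 3.80. The call was also lost when any single ZsG minus array was left out (adjusted p from 0.0962 to 0.174), with all probe sets tested (adjusted p = 0.076), and with each array centred on all probe sets (adjusted p = 0.0533) or on the genes tested (adjusted p = 0.0634). The replicate number as a block left 0 members called in this comparison. Leaving out any single ZsG minus array left 0 of 18194 genes called here, against 114 with all arrays. Every ZsG plus reading was above every ZsG minus cTEC reading, but the first ZsG plus array alone was above its controls. With the ZsG minus cTEC readings raised to their controls the fold was 1.21. This is no lower bound, as the other ZsG plus readings also lay below their controls. The difference between ZsG plus and ZsG minus cTEC was 4.82 ± 1.16 (limma adjusted p = 0.0745), and 2.30 with 50 added (adjusted p = 0.133). It was 6.07 without the second ZsG plus array (adjusted p = 0.0211), the 1 of 18 alternatives in which it passed. Relative to ZsG minus mTEC the difference was −1.65 ± 1.16 (limma adjusted p = 0.556), with the first ZsG plus array above and the other ZsG plus arrays below all ZsG minus mTEC arrays.

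**Figure D2:**
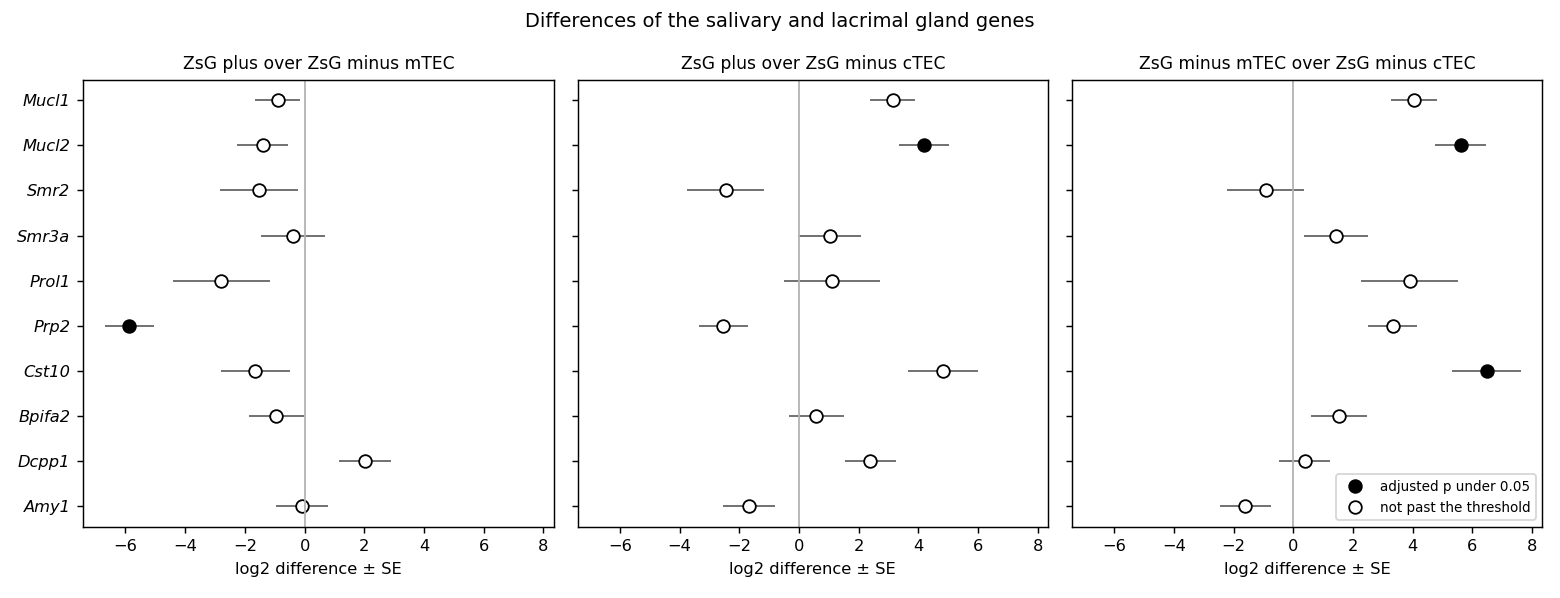
Log2 differences of the 10 genes in the 3 comparisons (points, with SE as bars); filled points passed an adjusted p of 0.05 in limma over all genes tested. Mucl2 passed over ZsG minus cTEC in both other groups, Cst10 passed between the ZsG minus groups, and Prp2 was the filled point below 0, at −5.88.

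The Smr genes, named as androgen-regulated genes of the submaxillary gland, gave no difference past the threshold. Smr3a read 413, 240 and 31.5 across the ZsG plus arrays and 200, 103 and 342 on the ZsG minus mTEC arrays, against 204, 52.6 and 34.3 across the ZsG minus cTEC arrays. The groups overlapped in every pair. The differences of Smr3a were −0.39 ± 1.07 for ZsG plus over ZsG minus mTEC and 1.03 ± 1.07 for ZsG plus over ZsG minus cTEC, with 1.42 ± 1.07 between the ZsG minus groups (limma adjusted p = 0.899, 0.638 and 0.705). The brightest of 3 Smr2 probe sets read 4.42, 24.2 and 15.4 across the ZsG plus arrays and 288, 9.91 and 13.7 on the ZsG minus mTEC arrays, against 25.6, 100 and 105 across the ZsG minus cTEC arrays. The first ZsG minus mTEC array was the single one above its controls. A second Smr2 probe set also read highest there, at 301, and the third read between 1.65 and 13.0 on all arrays. The Smr2 probe sets disagreed in sign between ZsG minus mTEC and ZsG minus cTEC, at −0.93, 1.03 and 1.26.

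Bpifa2, Dcpp1 and Amy1 were also without a call. Bpifa2, which encodes parotid secretory protein, read 15.8, 151 and 171 in ZsG plus and 187, 74.3 and 213 in ZsG minus mTEC, against 48.5, 43.9 and 57.6 in ZsG minus cTEC. ZsG minus mTEC did not overlap with ZsG minus cTEC, by 1.53 ± 0.93 (limma adjusted p = 0.595), while all ZsG plus and ZsG minus cTEC readings lay below their controls. Dcpp1, a demilune cell and parotid protein gene, read 55.9, 143 and 183 in ZsG plus, against 16.6, 20.9 and 62.9 in ZsG minus mTEC and 10.8, 60.9 and 15.2 in ZsG minus cTEC. It was the single member with a positive difference of ZsG plus over ZsG minus mTEC, at 2.02 ± 0.86 (limma adjusted p = 0.354), but no ZsG plus reading was above its controls. A brighter probe set shared with Dcpp2 and Dcpp3, described below, went the other way, at −5.09 ± 1.83 (limma adjusted p = 0.302). Amy1, the salivary amylase gene, read 158, 170 and 37.1 in ZsG plus and 68.5, 164 and 105 in ZsG minus mTEC, against 244, 152 and 892 in ZsG minus cTEC. Its differences from ZsG minus cTEC were negative, at −1.68 ± 0.87 for ZsG plus and −1.60 ± 0.87 for ZsG minus mTEC (limma adjusted p = 0.332 and 0.524), and the groups overlapped in every pair. A probe set shared with Rnpc3 read 9.32 to 942, with −0.96 ± 1.53 and −1.45 ± 1.53 in the same order (limma adjusted p = 0.784 and 0.868). Amylase genes of the pancreas lie beside Amy1 and are closely related to it, so cross-hybridisation cannot be told apart from Amy1 signal here.

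Mucl2 and Cst10 were the members that rose between the ZsG minus groups. Between ZsG minus mTEC and ZsG minus cTEC 2 of 10 genes rose and 0 fell, against 0.528% of all genes that rose and 0.0989% that fell (0.627% in all), and 5 of 10 had an unadjusted p under 0.05, against 12.3%. In 6 of 10 genes (Mucl1, Mucl2, Prol1, Prp2, Cst10 and Bpifa2) every ZsG minus mTEC array was above every ZsG minus cTEC array, against 16.6% of all genes; in 0 of 10 it was below, against 11.8%. The median difference of the 10 genes was 2.43, against 0.09 over all genes tested. Markers of thymocytes and fibroblasts moved with this comparison. The 8 thymocyte markers summed to 5235 to 9088 in ZsG minus mTEC and to 40927 to 56003 in ZsG minus cTEC, and the 5 fibroblast markers to 4068 to 7448 and 34238 to 52764 in the same order; their part in the result was not tested. In bulk samples, fewer cells that make a transcript and less of it per cell cannot be told apart.

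By geometric mean, ZsG plus lay between the other groups for 6 of 10 members. Over ZsG minus cTEC 1 of 10 genes rose and 0 fell, against 0.599% of all genes that rose and 1.14% that fell (1.74% in all), and 3 of 10 (Mucl1, Mucl2 and Cst10) were higher without overlap, against 9.9%. Smr2 and Prp2 were lower without overlap, 2 of 10 against 13.4%, which makes 5 of 10 in either direction, against 23.3%. All readings of Smr2 and Prp2 in both groups lay below the controls, and the dimmer Smr2 probe sets differed in sign, at −0.60 and 1.22. The median difference was 1.07, against −0.14 over all genes. Here too thymocyte markers (7016 to 7107 in ZsG plus, against the 40927 to 56003 of ZsG minus cTEC) and fibroblast markers (4133 to 25452, against 34238 to 52764) moved with the comparison, and their part was not tested. Against ZsG minus mTEC 1 of 10 genes fell and 0 rose, against 0.203% of all genes that fell and 0.0165% that rose (0.22% in all). That gene, Prp2, was also the single member whose groups did not overlap, against 12.3% of all genes lower and 5.77% higher without overlap (18.1% in all). The groups of Prp2 did overlap with its ZsG plus readings raised to their controls. The median was −1.18, against −0.33 over all genes, and 9 of 10 differences were negative, against 11100 of 18194 genes. Of the 9, those of Smr3a and Amy1 turned positive with quantile normalization and with either median centring. The comparisons share arrays, so these values are not independent of each other. Between ZsG plus and ZsG minus mTEC, 2 measured B cell markers summed to 869 to 8354, against 114 to 462. Thymocyte markers (7016 to 7107, against 5235 to 9088) and fibroblast markers (4133 to 25452, against 4068 to 7448) overlapped in this comparison. The part of such cells was not tested. The geometric means of Mucl1, Mucl2, Prol1, Cst10, Smr3a and Bpifa2 all stood in the order ZsG minus mTEC, ZsG plus, ZsG minus cTEC from high to low, but neighbours in that order overlapped in at least one pair for each of them, so the place of ZsG plus within the order is not fixed by these arrays.

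**Figure D3:**
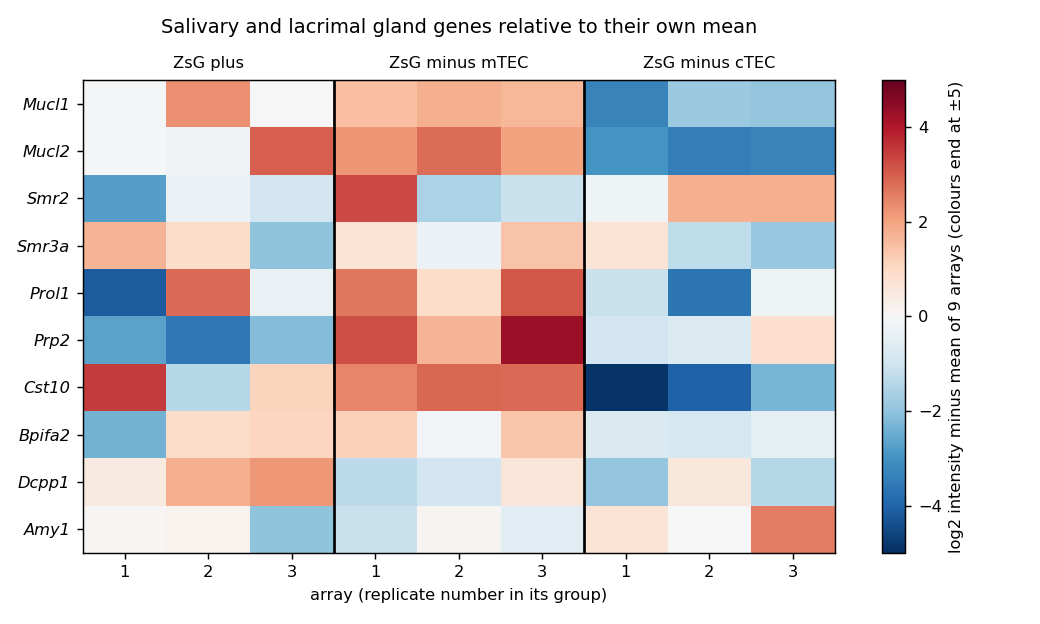
Log2 intensity of each gene minus its own mean over the 9 arrays (colour; columns are arrays, in their groups). The ZsG minus mTEC columns are above the mean for Mucl1, Mucl2, Prol1, Prp2 and Cst10 on all 3 arrays, while among the ZsG plus columns Cst10 is highest on the first array, Mucl1 and Prol1 on the second and Mucl2 on the third.

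Mucl1 and Mucl2 were the members above the controls on all ZsG plus arrays, and their bright arrays differed, as given above. Of the others, Smr3a and Cst10 exceeded 341, the highest control reading of any array, on the first ZsG plus array alone and Prol1 on the second alone, while Smr2, Prp2, Bpifa2, Dcpp1 and Amy1 did so on none. Mucl2 was 8.90-fold brighter on its highest than on its lowest ZsG plus array and Mucl1 5.13-fold, against 1.70-fold and 1.22-fold within ZsG minus mTEC. With the lowest array raised to its control, the range within ZsG plus was at least 6.64-fold for Prol1 and at least 3.13-fold for Cst10, against 4.56-fold and 1.35-fold within ZsG minus mTEC. The median SD of the 10 genes on the log2 scale was 1.56 for ZsG plus and 0.85 for ZsG minus mTEC, against 1.23 in ZsG minus cTEC; in ZsG plus and ZsG minus cTEC most of the 10 genes were below the controls on most arrays, so these SDs include the spread of background. Over all genes tested these medians were 1.30, 0.63 and 0.61 in the same order of groups. With 341 as a common line, 4, 3 and 2 of the 10 genes were above it across the ZsG plus arrays and 5, 3 and 6 on the ZsG minus mTEC arrays, against 0, 1 and 2 on the ZsG minus cTEC arrays. Mucl1 and Mucl2 were above it on all arrays of the first 2 groups, Cst10 on all ZsG minus mTEC arrays and on 1 ZsG plus array.

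The regulators Aire and Fezf2, which are also among the medullary markers above, rose over ZsG minus cTEC in both other groups. Aire read 15751, 23622 and 13180 in ZsG plus and 18140, 17983 and 23992 in ZsG minus mTEC, against 1236, 2419 and 2571 in ZsG minus cTEC. Fezf2 read 32296, 15790 and 22884 in ZsG plus and 17496, 23680 and 16623 in ZsG minus mTEC, against 756, 1950 and 2116 in ZsG minus cTEC. Both overlapped between ZsG plus and ZsG minus mTEC, with differences of −0.22 ± 0.55 and 0.25 ± 0.61 (limma adjusted p = 0.884 and 0.88). Over ZsG minus cTEC the differences of Aire were 3.11 ± 0.55 for ZsG plus and 3.33 ± 0.55 for ZsG minus mTEC (limma adjusted p = 0.0358 and 0.0451), and those of Fezf2 3.96 ± 0.61 and 3.70 ± 0.61 (limma adjusted p = 0.0258 and 0.0449). Their calls between the ZsG minus groups were lost when any single ZsG minus array was left out, as 0 genes were then called. Those for ZsG plus were lost without the first or second ZsG minus cTEC array in the same way. No test set the difference of Prp2 against theirs.

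Of 41 further secretory genes of these glands, 24 were measured through a probe set of their own, 1 of them under another symbol, and 0 passed the threshold in any comparison (limma; smallest adjusted p = 0.282, 0.0535 and 0.0733 for ZsG plus over ZsG minus mTEC, ZsG plus over ZsG minus cTEC and ZsG minus mTEC over ZsG minus cTEC). At an unadjusted p under 0.05, 11 were higher and 0 lower in ZsG minus mTEC than in ZsG minus cTEC, against 8.4% and 3.9% of all genes, and 12 of 24 were higher and 0 lower without overlap, against 16.6% and 11.8%. In ZsG plus, 5 were higher and 0 lower than in ZsG minus cTEC at that p, against 7.44% and 11.3%, and 0 higher and 2 lower than in ZsG minus mTEC, against 3.2% and 10.2%. The medians of the 24 were 1.48, 1.25 and −0.32 in these comparisons, the last beside −0.33 over all genes.

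The 2 brightest of the 24 were the lysozyme genes Lyz1 and Lyz2, which macrophages also express, at −0.01 ± 0.74 and 0.04 ± 0.71 for ZsG plus over ZsG minus mTEC. Both were higher in ZsG minus mTEC than in ZsG minus cTEC without overlap, by 1.38 ± 0.74 and 1.36 ± 0.71 (limma adjusted p = 0.519 and 0.508). The 5 dendritic cell and macrophage markers summed to 29535 to 96529 in ZsG plus and 37462 to 52654 in ZsG minus mTEC, against 14549 to 42474 in ZsG minus cTEC. Lyz2 is itself among these markers and was the brightest of them, so the sum largely repeats its values. Of the others, C1qb and Cd68 averaged 4792 and 1118 in ZsG minus mTEC, against 3161 and 953 in ZsG minus cTEC. Itgax and Csf1r went the other way, at 93.3 and 1945, against 1393 and 2860. The part of such cells in the lysozyme values was not tested. The following were chosen after their values were seen. Klk1b1, of the glandular kallikreins, read 1352, 1033 and 236 in ZsG plus and 1116, 711 and 625 in ZsG minus mTEC, against 7.35, 16.7 and 107 in ZsG minus cTEC. Its differences from ZsG minus cTEC were 4.87 ± 1.04 for ZsG plus and 5.07 ± 1.04 for ZsG minus mTEC (limma adjusted p = 0.0535 and 0.0733). All ZsG minus cTEC readings lay below their controls. Raised to them, they leave 4.23-fold for ZsG plus and at least 4.85-fold for ZsG minus mTEC. The 4.23 is no lower bound, as the third ZsG plus reading also lay below its control. The kallikrein genes are close copies, so the signal of a single member is uncertain. Lpo, which encodes the lactoperoxidase of saliva, tears and milk, read 8768, 9155 and 2938 in ZsG plus and 8119, 10464 and 6104 in ZsG minus mTEC, against 1372, 448 and 1673 in ZsG minus cTEC, with no overlap between either group and ZsG minus cTEC (limma adjusted p = 0.105 and 0.107). Car6, the secreted carbonic anhydrase of saliva, read 285, 239 and 73.4 in ZsG plus, below all ZsG minus mTEC arrays at 752, 1157 and 515, with 44.0, 49.0 and 157 in ZsG minus cTEC. Its difference of −2.16 ± 0.76 between ZsG plus and ZsG minus mTEC did not pass (limma adjusted p = 0.282), and as 2 of the ZsG plus readings were below their controls it stands for at least 2.47-fold higher in ZsG minus mTEC.

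Genes of the gland epithelium that do not encode secreted antigens showed 0 calls among 10 in each comparison (limma; smallest adjusted p = 0.166), with 2, 1 and 1 genes at an unadjusted p under 0.05 between the ZsG minus groups, in ZsG plus over ZsG minus cTEC and in ZsG plus over ZsG minus mTEC, against 12.3%, 18.7% and 13.4% of all genes. Their medians were −0.28, 0.14 and 0.42 in the same order. The brightest were Slc12a2, a chloride cotransporter, and Pigr, the receptor that carries antibodies into secretions, at −0.18 ± 0.77 and 2.04 ± 0.80 for ZsG minus mTEC over ZsG minus cTEC. The summed level of 6 markers of acinar cells was 3400 to 21435 in ZsG plus and 7211 to 8422 in ZsG minus mTEC, against 6634 to 11426 in ZsG minus cTEC. Of these markers Pigr averaged 3670 for ZsG plus and 3901 for ZsG minus mTEC, against 950 in ZsG minus cTEC, while Kcnn4, a potassium channel gene, averaged 788 and 362, against 2387, in the same order. The part of such cells in the values of the 10 genes was not tested.

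**Figure D4:**
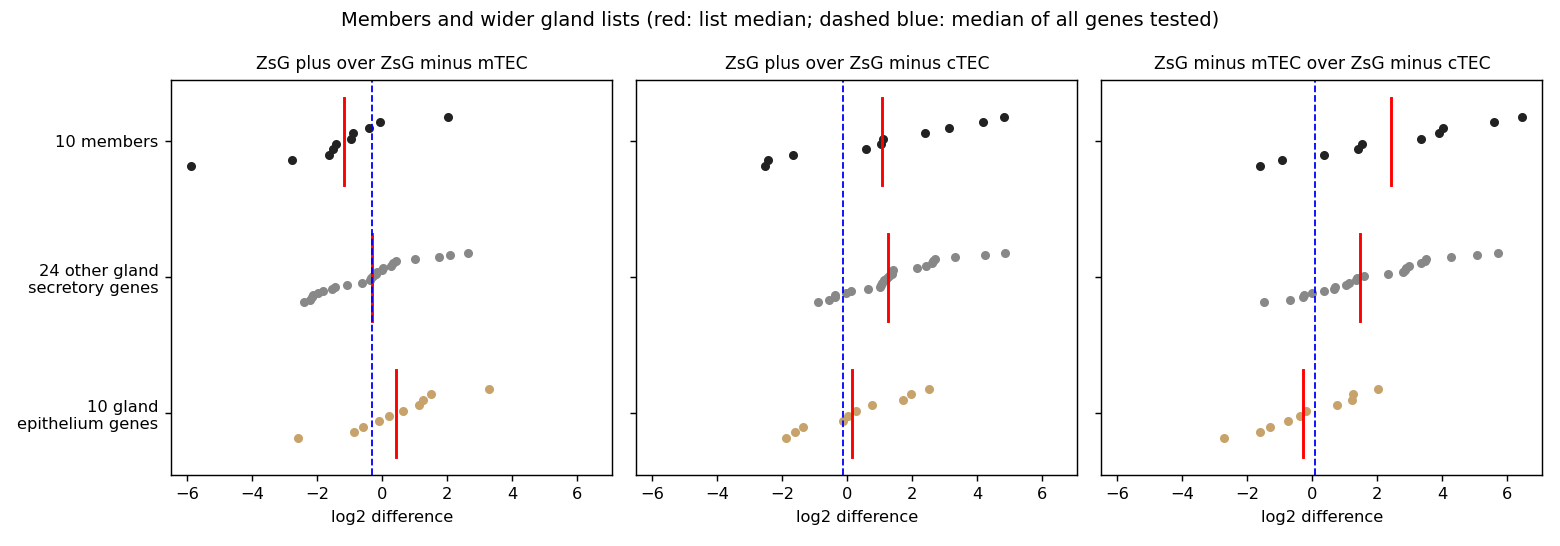
Log2 differences of the 10 genes, of 24 other gland secretory genes and of 10 gland epithelium genes in the 3 comparisons (points are genes, red lines list medians, dashed lines the median of all genes tested). Between the ZsG minus groups the medians were 2.43, 1.48 and −0.28, beside 0.09 over all genes.

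The chromosomal neighbourhood was read within 5 gene positions on either side of each member, which gave 26 tested genes that are no members. In ZsG minus mTEC over ZsG minus cTEC 1 of 26 rose and 0 fell, and 12 were higher and 2 lower without overlap, against 16.6% and 11.8% of all genes; the median was 1.21. The gene that rose was Csn3, which encodes the milk protein kappa-casein and lies near Smr3a and Smr2. Csn3 read 397, 106 and 154 in ZsG plus and 336, 362 and 1239 in ZsG minus mTEC, against 14.4, 10.3 and 7.27 in ZsG minus cTEC. Its differences from ZsG minus cTEC were 4.19 ± 0.74 for ZsG plus and 5.70 ± 0.74 for ZsG minus mTEC (limma adjusted p = 0.0358 and 0.0324), and no other neighbour was called in these comparisons. The call between the ZsG minus groups was lost when any single ZsG minus array was left out, as 0 genes were then called. All ZsG minus cTEC readings of Csn3 and 2 of 3 in ZsG plus were below their controls. With the ZsG minus cTEC readings raised to their controls, the fold was at least 3.26 for ZsG minus mTEC. For ZsG plus it was 1.15, which is no lower bound, as most ZsG plus readings also lay below their controls. Beyond Prol1 the brightest neighbour was Jchain, which encodes the joining chain of secreted antibodies and read 1128, 4.17 and 37.2 in ZsG plus, with 1101, 1799 and 593 in ZsG minus mTEC, against 1858, 2257 and 1393 in ZsG minus cTEC. Near Bpifa2 the brightest was Bpifa1, an airway and oral secreted protein gene of the same family, which read 6631 to 11536 in ZsG plus, 8126 to 13378 among ZsG minus mTEC arrays and 9765 to 12318 among ZsG minus cTEC arrays, so all groups overlapped. Near Mucl1 the brightest was Nckap1l, a leukocyte actin regulator, which was lower in ZsG minus mTEC, at 500 to 732, than in ZsG minus cTEC, at 1934 to 4663, without a call (limma adjusted p = 0.131). Near Mucl2 it was Ppp1r1a, a phosphatase inhibitor gene, near Smr2 and Smr3a it was Csn3 again, and the brightest neighbours of Cst10, Dcpp1 and Amy1 were Cst3, which encodes cystatin C, Elob, of a ubiquitin ligase complex, and the spliceosome gene Rnpc3; apart from Csn3 none of these was called, and no neighbour of Prp2 was tested.

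By Pearson's r over the 9 arrays with the mean of the 10 genes, each centred on its own mean, the most similar other genes were Ripply2, Chrna4, 4933427E11Rik, Slc6a4 and Mylk2, at r from 0.942 to 0.977. The arrays fall into 3 groups, so r mostly follows the group means and is given as a description. Ripply2, a transcriptional repressor active in somite formation, averaged 475 for ZsG plus and 2015 for ZsG minus mTEC, against 107 in ZsG minus cTEC. Chrna4, a nicotinic receptor subunit gene of neurons, had 401 and 852, against 192, and Slc6a4, the serotonin transporter gene, 3074 and 4738, against 1265, in the same order. For Aire the same r was 0.830 and for Fezf2 0.702.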

How the data were processed

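The authors deposited linear intensities of 45101 probe sets per array, and the software behind them is not given in the sources used here. Computed from the files, each array had a mean of 1250 after 2% was trimmed at both ends. Per the labels' protocols, 5 ng of total RNA was amplified with an Ovation Pico kit. Each intensity was log2-transformed without an offset. Of the probe sets, 34958 had 1 symbol; the brightest by mean log2 stood for each of 18194 genes, and 8 members had a single such probe set. Differences were fitted by limma 3.58.1, under R 4.3.3 (lmFit, eBayes; 1 coefficient per group, all 9 arrays, 6 residual degrees of freedom), two-sided, with Benjamini-Hochberg adjustment over all genes and a threshold of 0.05. Fitting was tested on simulated data. Each ± gives the SE of a log2 difference; levels are geometric means. Whether the 3 samples of a group are separate animals is not labelled, so p-values measure only their spread, possibly technical. No detection calls were analysed, and the number of arrays limits the precision. The members and lists were chosen with earlier results of these data known. Named were all members, the 2 brightest and any called genes of each list, Aire and Fezf2, called and brightest neighbours, and the 5 genes most similar by r. Alternatives changed probe sets, filter, offset, normalization, samples, array weights, a replicate block and single arrays. Matplotlib 3.10.9 drew the figures. Sequences and positions are RefSeq's (GRCm38.p6); no genome was used.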

Additional observations from a re-analysis of the deposited data

How the results depend on the processing

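Which member calls passed depended on the arrays and settings used. Of 276 member differences under alternatives other than leaving out an array, 239 kept direction and side of the threshold, 18 lost and 10 gained a call, and 9 reversed; of 270 with an array left out, 233, 24, 3 and 10 did so. Without single arrays the member calls ranged from 0 to 1 in ZsG plus over ZsG minus mTEC, 0 to 2 in ZsG plus over ZsG minus cTEC and 0 to 3 between the ZsG minus groups, and those over all genes from 0 to 230, 0 to 735 and 0 to 304. The causes were not tested.

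In ZsG plus over ZsG minus mTEC (1 member, 40 genes) the filter at the 40th percentile, quantile normalization, both median centrings, the fit of 6 arrays and array weights each left 0 members. All-gene calls were 101 with an offset of 50, 15 with quantile normalization, 3 and 3 with the centrings, and 0 with 6 arrays or array weights. In ZsG plus over ZsG minus cTEC (1 and 317), 0 members passed with all probe sets, 6 arrays or array weights, and 2 with the filter, the offset or centring on all probe sets. All-gene calls were 496 with the mean of probe sets, 504 with the filter, 660 with the offset, 0 with 6 arrays and 37 with array weights. Between the ZsG minus groups (2 and 114), 0 members passed with all probe sets or centring on the genes tested, 1 with centring on all probe sets and 4 with array weights. All-gene calls were 27 with all probe sets, 216 with their mean, 176 with the filter, 334 with the offset, 178 with quantile normalization, 71 and 48 with the centrings, 548 with 6 arrays and 1220 with array weights. The filter kept 2 members, Mucl1 and Mucl2, and gives no value for the other 8. Of all calls of ZsG plus over ZsG minus mTEC, 7.5% were positive, against 26.7% with quantile normalization and 33.3% with either centring; over ZsG minus cTEC the share was 34.4%, against 53.2%, 63.6% and 58.3%.

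None of the differences that reversed had passed the threshold. Smr3a in ZsG plus over ZsG minus mTEC was 0.16 with quantile normalization and 0.14 and 0.23 with the centrings. Amy1 there was 0.0092 with the offset, 0.54 with quantile normalization, 0.46 and 0.55 with the centrings and 0.14 with array weights. Smr2 between the ZsG minus groups was 0.45 with the mean of probe sets. Without single arrays, ZsG plus over ZsG minus mTEC ranged from −2.42 to 0.0151 for Smr2, −1.14 to 0.72 for Smr3a, −1.55 to 0.17 for Bpifa2 and −0.46 to 0.64 for Amy1. ZsG plus over ZsG minus cTEC ranged from −0.58 to 2.91 for Prol1 and −0.0214 to 1.70 for Bpifa2, and ZsG minus mTEC over ZsG minus cTEC from −0.21 to 1.13 for Dcpp1.

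Whether the replicate numbers pair the samples is not known here. Deviations from the group means correlated at −0.015 to 0.0132 in 9 same-numbered pairs and −0.0224 to 0.0114 in 18 others. With only 3 arrays in each group, these correlations cannot decide whether same-numbered arrays belong together. With the number as a replicate block, 0 members were called in each comparison, and 0, 16 and 0 of all genes, in the order above.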

Other observations

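A probe set annotated jointly to Dcpp1, Dcpp2 and Dcpp3, which cannot be given to a single gene and was therefore not used for Dcpp1, read 3325, 1988 and 14.7 across the ZsG plus arrays and 17292, 23029 and 9610 on the ZsG minus mTEC arrays, against 93.3, 284 and 29.1 on the ZsG minus cTEC arrays. Every ZsG minus mTEC reading was above every other reading. In a limma fit over all 45101 probe sets the difference was 7.41 ± 1.83 between ZsG minus mTEC and ZsG minus cTEC (adjusted p = 0.165) and −5.09 ± 1.83 for ZsG plus over ZsG minus mTEC (adjusted p = 0.302), so it passed in neither. The probe set of Dcpp3 alone, chosen for mention after its values were seen, read 808, 1594 and 33.3 in ZsG plus and 798, 1287 and 1074 in ZsG minus mTEC, against 9.85, 44.6 and 344 in ZsG minus cTEC. On the third ZsG plus array both probe sets were dim, where Mucl2 was at its brightest. The probe set of Dcpp1 alone did not show this pattern.

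Among the gland epithelium genes, Sox10, a transcription factor of gland precursors and neural crest, read 152, 705 and 586 in ZsG plus, above all ZsG minus mTEC arrays at 40.3, 31.5 and 51.6, with 271, 41.0 and 164 in ZsG minus cTEC; it was chosen after its values were seen, and its difference of 3.30 ± 0.86 from ZsG minus mTEC did not pass (limma adjusted p = 0.166); with 2 of the ZsG minus mTEC readings below their controls it stands for at least 4.06-fold.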
